A study of Mus musculus with 8 samples.

Results

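The genes described here make, store and take up fat. They are 33 genes of fatty acid synthesis, desaturation and elongation, glyceride synthesis, the lipid droplet and fatty acid uptake. They were measured in livers of mice with and without a deletion of both alleles of the copper chaperone gene Sco1, targeted to hepatocytes. They were chosen by gene symbol, each represented by its brightest probe set that names a single gene, and 31 of the 33 had such a probe set among the 22180 genes tested. Scd2 and Cideb had only probe sets that also name Mir5114 and Nop9. Those shared probe sets differed by -0.21 ± 0.12 and -0.01 ± 0.09 log2 units (SE) between knockout and wild-type livers, and were not counted.

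Livers of 8 C57BL/6N mice were taken at 27 days of age, and the RNA of every liver was read on an Affymetrix array of its own. The 4 knockout mice, titled Alb-Cre Sco1fl/fl, had the genotype label Albumin-Cretg/wt:Sco1fl/fl. In this design Cre under the albumin promoter is meant to delete floxed Sco1 in hepatocytes. Which cells of the liver kept the gene is not in the labels. The 4 wild-type mice, all titled Sco1fl/fl, were of 2 kinds by their genotype label: mice 1 and 3 were Albumin-Cretg/wt:Sco1fl/wt, with Cre and 1 floxed allele, and mice 2 and 4 were Albumin-Crewt/wt:Sco1fl/fl, with 2 floxed alleles and no Cre. Every mouse of both groups therefore carried a floxed Sco1 allele, and the labels give no sex, litter, feeding state or hour of collection.

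The liver makes fatty acids from cytosolic acetyl-CoA, lengthens and desaturates them, joins them to glycerol as triglyceride, and keeps the triglyceride in droplets coated with perilipins or exports it in lipoproteins. Transcription of the synthetic enzymes is driven by SREBP-1c after insulin and by ChREBP after glucose, and several of the genes follow the hour of the day. Sco1 is a mitochondrial protein that delivers copper to cytochrome c oxidase. The comparison asks how these genes differed where deletion of both Sco1 alleles was targeted to hepatocytes.

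Values are on the log2 scale of the authors' RMA normalization, and differences are knockout minus wild-type from limma over all 22180 genes, with Benjamini-Hochberg adjusted p-values and a threshold of 0.05. Arrays correlated at 0.9915 to 0.9954 within the groups, and the hepatocyte marker Alb stood at 13.83 to 13.88 in all livers. That is the top of the range of values on the arrays, where a difference in Alb could hardly show. Sco1 itself was 7.59 ± 0.10 in knockout and 8.00 ± 0.15 in wild-type livers (SD, n = 4 each), a difference of -0.41 ± 0.09 (SE) without overlap of the groups that missed the threshold (limma, adjusted p = 0.0633). The exons that its probe set covers are not known here, nor is how completely hepatocytes lost the gene. The array of knockout mouse 4 stood apart with a mean of 3 Y-linked genes of 7.36, against 8.60 to 8.86 on the other arrays. The arrays of knockout mouse 1 and wild-type mouse 1 stood apart in the clock output gene Dbp, at 9.66 and 9.86 against 6.87 to 7.33.

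Of the 31 genes, 2 rose in the knockout livers, the fatty acid translocase gene Cd36 and the droplet coat gene Plin4, none fell, and 29 did not pass the threshold. Over all genes 0.433% were called higher and 0.717% lower (limma with Benjamini-Hochberg adjustment). Without adjustment, a p under 0.05 was reached by 2 higher genes and 1 lower gene of the 31, against 8.61% and 8.06% of all genes. Groups without overlap were found for the same pair, Cd36 and Plin4, both with every knockout liver above every wild-type liver, against 5.26% of all genes in that direction, 5.49% in the other and 10.7% in either. With arrays centred on their medians the calls over all genes were 86 higher and 271 lower, beside 96 and 159, and the 31 genes kept 2 higher and 0 lower. The median difference of the 31 genes was -0.02, beside 0.03 over all genes, and 18 of the 31 were negative, against 42.8% of all genes.

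**Figure D1:**
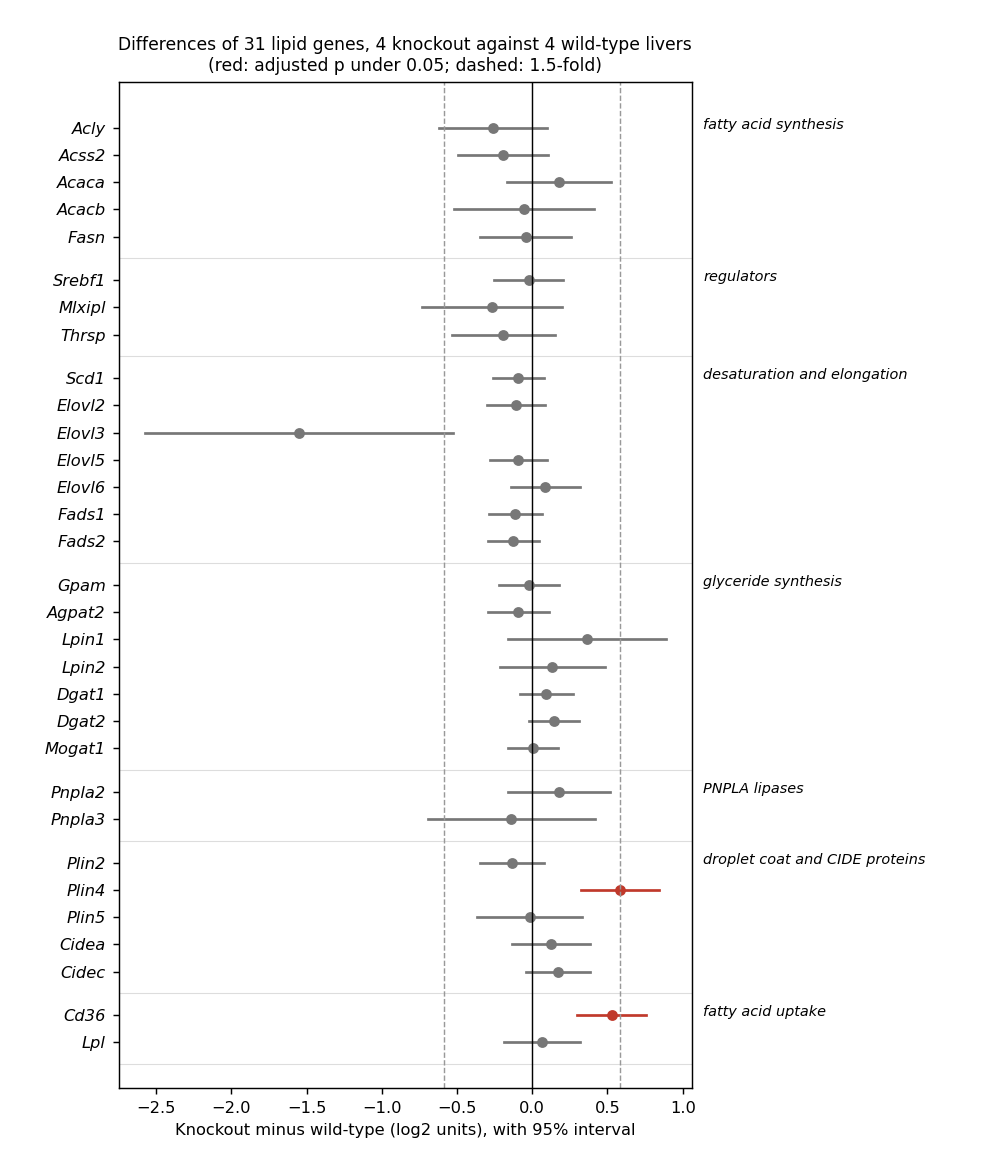
Knockout minus wild-type difference of each of the 31 measured genes in log2 units, grouped by role, with limma's 95% interval (n = 4 each). Cd36 and Plin4 (red) passed the threshold, Elovl3 lies far to the left with the widest interval, and 24 genes have intervals inside the dashed lines at a 1.5-fold difference.

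For 24 of the 29 genes that did not pass, the 95% interval lay wholly within a 1.5-fold difference in either direction, and the exceptions were Acly, Mlxipl, Elovl3, Lpin1 and Pnpla3. Of the 24, Cidea, Mogat1 and Cidec lay below the array medians of 6.47 to 6.54 in all livers, and Scd1 lay close to the highest value on the arrays, so that a narrow interval bounds the probe set's value and not the transcript's. That leaves 20 genes, of which Fads2, at 13.02 to 13.31, lay nearly as high as Scd1 and shares its limit. The intervals are not adjusted for the number of genes, and RMA pulls large differences toward 0.

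Fatty acid uptake held the gene of smallest p among the 31. Cd36 encodes a membrane protein that brings long-chain fatty acids into cells, and in liver it is found on hepatocytes, macrophages and endothelium. Its levels were 10.08, 9.97, 10.03 and 10.20 in knockout mice 1 to 4 and 9.79, 9.60, 9.46 and 9.31 in wild-type mice 1 to 4. The lowest knockout liver lay above the highest wild-type liver, which was wild-type mouse 1. The group means of 10.07 ± 0.10 and 9.54 ± 0.20 (SD, n = 4 each) differed by 0.53 ± 0.11 (SE), or 1.44-fold, with a 95% interval of 0.30 to 0.76 (limma, adjusted p = 0.0425). The call was kept without wild-type mouse 1 (0.61, adjusted p = 0.0305) and lost without any 1 of the other 7 arrays, with differences of 0.45 to 0.56 and adjusted p of 0.0668 to 0.119.

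Lpl, lipoprotein lipase, which frees fatty acids from circulating triglyceride and is low in adult hepatocytes, did not pass. It stood at 11.12, 11.38, 11.45 and 11.13 in the knockout and at 10.93, 11.31, 11.36 and 11.22 in the wild-type livers, and the groups overlapped throughout. The difference was 0.07 ± 0.11, with a 95% interval of -0.19 to 0.32.

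Among the droplet genes the coat protein gene Plin4, best known from adipose tissue and muscle, rose. Plin4 was measured at 7.14, 7.21, 6.99 and 7.54 in the knockout livers and at 6.69, 6.59, 6.48 and 6.79 in the wild-type livers. Wild-type mouse 3 lay at the array medians of 6.47 to 6.54, and the other wild-type livers little above them. Again no knockout liver fell into the wild-type range, and knockout mouse 4 was the highest. The means were 7.22 ± 0.23 and 6.64 ± 0.14 (SD, n = 4 each). They differed by 0.58 ± 0.12 (SE), about 1.5-fold, with a 95% interval of 0.32 to 0.84 (limma, adjusted p = 0.0437). The call was kept without knockout mouse 3 (0.66, adjusted p = 0.0474) and lost without any 1 of the other 7 arrays, with differences of 0.48 to 0.63 and adjusted p of 0.0620 to 0.123.

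Both rises were also set against the array that stood apart. Knockout mouse 4, low in Y-linked genes, was the highest knockout liver for Cd36 and for Plin4. With the Y-linked level as a covariate the differences were 0.47 for Cd36 (limma, adjusted p = 0.0902) and 0.47 for Plin4 (adjusted p = 0.0758), which ended both calls. Without knockout mouse 4 they were 0.48 (limma, adjusted p = 0.0791) and 0.48 (adjusted p = 0.0620).

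The sequence just upstream of the RefSeq start site is shown for these 2 genes because they are the ones that passed. The windows, from RefSeq in build GRCm38.p6, are chr5:17835897-17836146 for Cd36 and chr17:56109783-56110032 for Plin4, both on the minus strand, and each holds the 250 bases before a start site. The RefSeq span of Cd36 reaches further upstream than this window. Capitals mark the CCAAT box, the only one of the 5 searched motifs that either window holds.
Cd36: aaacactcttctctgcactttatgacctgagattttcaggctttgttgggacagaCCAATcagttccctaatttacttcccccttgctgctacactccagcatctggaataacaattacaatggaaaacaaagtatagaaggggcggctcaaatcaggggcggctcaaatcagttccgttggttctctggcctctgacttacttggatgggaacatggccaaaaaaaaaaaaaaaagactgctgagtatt
Plin4: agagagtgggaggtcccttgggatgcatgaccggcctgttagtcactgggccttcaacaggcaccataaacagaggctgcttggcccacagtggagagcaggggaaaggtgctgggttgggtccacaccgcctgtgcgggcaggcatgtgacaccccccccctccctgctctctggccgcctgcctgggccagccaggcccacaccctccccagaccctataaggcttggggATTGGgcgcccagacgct

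Counted from the start site, the match begins at -195 in Cd36 and at -18 in Plin4, where it lies on the opposite strand as ATTGG. The box was found on either strand in 33.8% of all 32851 RefSeq windows of this length. Among the genes described here, 24 of 31 had a window, some of them several, and the box was in 15 of their 33 windows. These belong to 14 genes, of which 12 did not pass the threshold. The sterol regulatory element, searched as TCACNCCAC, was present in the window of Mlxipl and in 1.05% of all windows. The E-box CACGTG was present in those of Elovl5, Lpin2 and Mlxipl and in 6.02% of all windows. The DR1 element and the D-box TTANGTAA were in no window of the 24 genes, and in 0.0335% and 2.06% of all windows. All 5 motifs were searched on both strands, and none holds the letters of another.

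**Figure D2:**
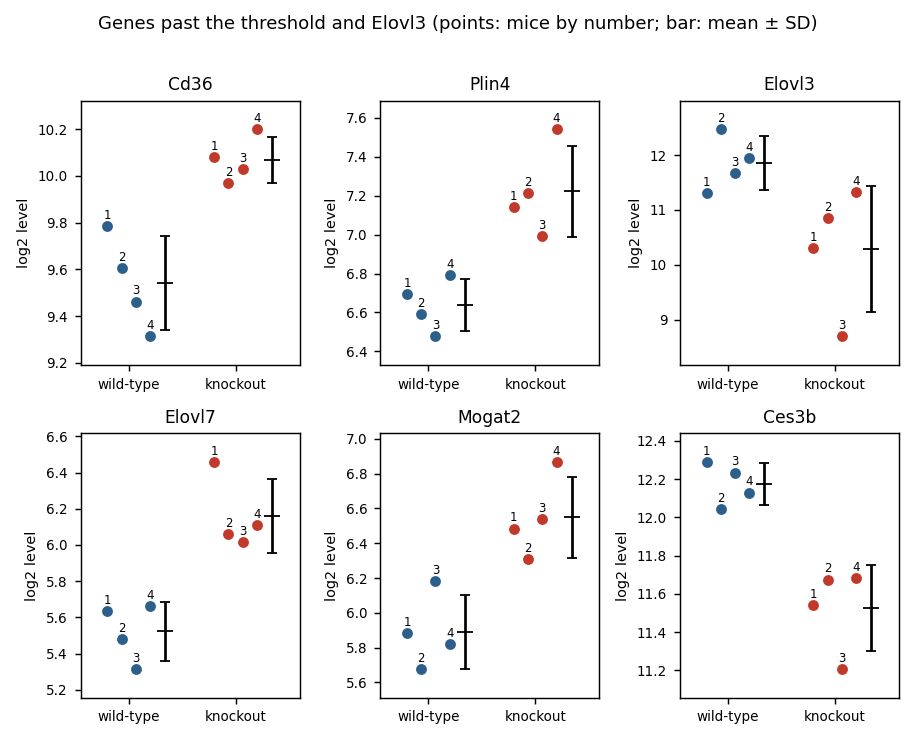
Log2 level in each liver of Cd36, Plin4 and Elovl3, and of Elovl7, Mogat2 and Ces3b from the wider lists (points with mouse numbers, 4 wild-type in blue and 4 knockout in red; bars are mean ± SD). Groups do not overlap in any panel other than Elovl3, where knockout mouse 4 at 11.33 lies just above wild-type mouse 1 at 11.30.

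The other droplet genes did not pass. Plin2, the coat protein found on hepatocyte droplets generally, stood at 11.12, 11.39, 11.34 and 11.55 in the knockout and at 11.45, 11.49, 11.41 and 11.60 in the wild-type livers, a difference of -0.14 ± 0.10. Cidec, which joins droplets and transfers lipid between them, stood at 6.25, 6.18, 6.05 and 6.45 against 6.20, 6.01, 5.97 and 6.07, a difference of 0.17 ± 0.10. The groups overlapped for both. The 95% interval was -0.35 to 0.08 for Plin2 and -0.04 to 0.39 for Cidec, whose levels lay below the array medians and set no bound on the transcript. Cidea, a relative of Cidec, differed by 0.12 ± 0.12, at levels of 4.83 to 5.38, likewise below the medians. Plin5, which ties droplets to mitochondria, differed by -0.02 ± 0.16, and its knockout mouse 1 at 7.70 lay below the other 7 livers, which ranged from 8.11 to 8.49.

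Cell type markers were read beside these rises. Over all genes, 12676 of 22180 had positive differences. Of 10 Kupffer cell and macrophage markers none passed, their mean level ranging over 9.26 to 9.76 in knockout and 9.16 to 9.65 in wild-type livers, and 9 of the 10 had positive differences. The defining markers Clec4f and Vsig4 differed by 0.09 ± 0.10 and 0.12 ± 0.09. Cd68, a lysosomal protein of macrophages, differed by 0.36 ± 0.09, with every knockout liver (9.95 to 9.98) above every wild-type liver (9.42 to 9.83; limma, adjusted p = 0.0921). None of 8 endothelial markers passed (mean level 9.96 to 10.09 against 9.80 to 9.99), and 7 of the 8 had positive differences. Those of smallest p were Lyve1 at 0.37 ± 0.14 and Clec4g at 0.17 ± 0.08, the latter without overlap of the groups (limma, adjusted p = 0.212 and 0.290). Of 8 adipocyte markers none passed (7.51 to 7.70 against 7.51 to 7.56), and 6 of the 8 had positive differences. The defining adipocyte markers Adipoq and Lep were dim, at 4.45 to 4.88 and 5.11 to 5.58. Mean levels of muscle, lymphocyte and hepatocyte markers did not overlap between groups. They were 5.66 to 5.84 in knockout against 5.49 to 5.64 in wild-type livers for 8 muscle markers, and 6.44 to 6.69 against 6.28 to 6.35 for 7 lymphocyte markers, with no marker of either list past the threshold and positive differences for all 15. Both lists hold dim genes, with mean levels of 4.32 to 6.90 for single muscle markers and 5.67 to 7.10 for single lymphocyte markers. These reach below the array medians of 6.47 to 6.54. Hepatocyte markers were slightly lower in mean level, at 13.0549 to 13.1224 in knockout against 13.1235 to 13.1449 in wild-type livers, and none of the 9 passed. Their differences were mixed, 5 negative and 4 positive, with a median of -0.009. Among them Serpina1a differed by -0.32 ± 0.12 and Fgb by -0.09 ± 0.07, both without overlap of the groups. Of 8 stellate cell and fibroblast markers none passed (8.97 to 9.06 against 9.02 to 9.26), and 6 of the 8 had negative differences. The part of other cell types in the rises of Cd36 and Plin4 was not tested, and in whole liver more cells of a type and more RNA per cell cannot be told apart.

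Elovl3 had the largest difference of the 31 genes and did not pass. It encodes an elongase of saturated and monounsaturated very long chain fatty acids, and its expression in mouse liver is known to be higher in males and to follow the clock. Its levels were 10.31, 10.85, 8.69 and 11.33 in knockout mice 1 to 4 and 11.30, 12.47, 11.68 and 11.95 in wild-type mice 1 to 4. Knockout mouse 3 lay far below the rest, and the groups overlapped by a small margin between knockout mouse 4 and wild-type mouse 1. The means of 10.30 ± 1.15 and 11.85 ± 0.49 (SD, n = 4 each) differed by -1.55 ± 0.47 (SE), or 2.93-fold, with a 95% interval of -2.58 to -0.53 (limma, adjusted p = 0.140). The adjusted p was 0.0677 to 0.505 over 21 alternative settings, in all of which the difference was negative. Without knockout mouse 3 the difference was -1.02 (adjusted p = 0.152).

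Most sex-biased genes of the liver that were measured stood apart in the same mouse. Knockout mouse 3 was the lowest of the 8 livers for all 4 genes that are higher in male liver, Hsd3b5, Cyp2d9, Cyp4a12a and Cyp4a12b. It stood at 9.88 for Hsd3b5, against 10.86 to 11.60 in the other livers, and at 10.73 for Cyp2d9, against 11.57 to 12.17. It was the highest for 3 of 4 genes that are higher in female liver, Sult2a1, Cyp2b9 and Cyp3a44, at 8.87 for Sult2a1 against 3.82 to 6.30 in the others, at 12.61 for Cyp2b9 against 9.83 to 11.94, and at 9.33 for Cyp3a44, level with wild-type mouse 4. The fourth, Cux2, went the other way, with 6.69 in knockout mouse 3 against 6.80 to 6.88 in the other knockout and 6.52 to 6.83 in the wild-type livers. Xist stood at 4.77 in that mouse, within the 4.59 to 5.06 of the other livers. Its Y-linked mean was 8.60, within the range of the other arrays apart from knockout mouse 4. The Hsd3b, Cyp and Sult genes have close relatives that their probe sets may also read, and the part of sex or maturation in the Elovl3 difference was not tested.

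**Figure D3:**
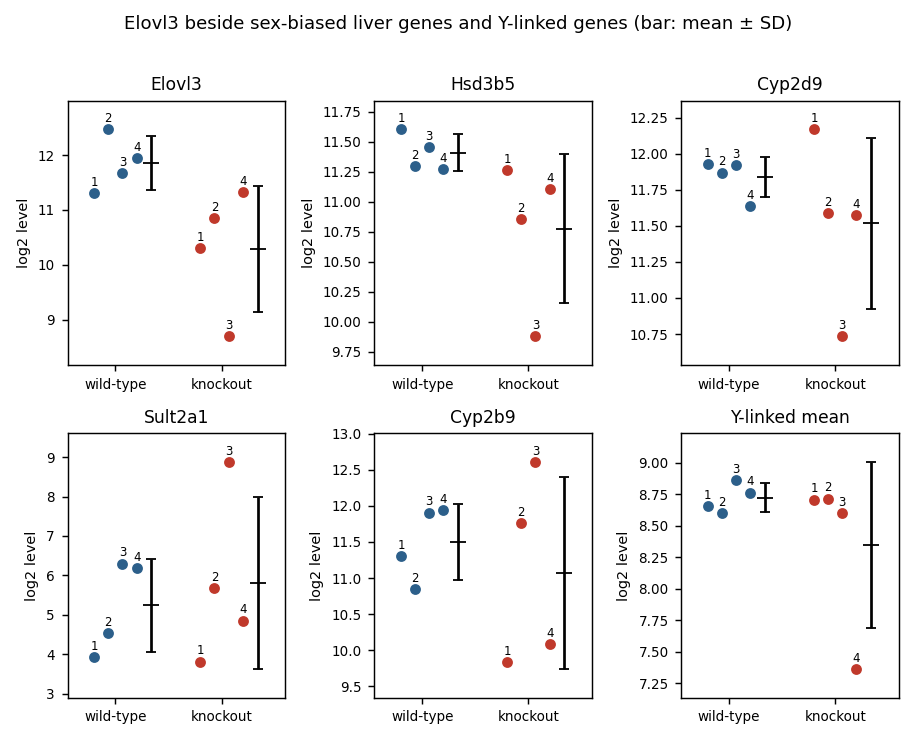
Log2 level in each liver of Elovl3, of Hsd3b5 and Cyp2d9 (higher in male liver), of Sult2a1 and Cyp2b9 (higher in female liver), and the mean of 3 Y-linked genes (points with mouse numbers, 4 per group; bars are mean ± SD). Knockout mouse 3 is lowest in the first 3 panels and highest in the next 2, and knockout mouse 4 is low, at 7.36, in the Y-linked panel alone.

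The remaining elongases and desaturases lay close together in both groups. Fads1 and Fads2, the desaturases of polyunsaturated fatty acid synthesis, stood at 12.56, 12.68, 12.83 and 12.67 and at 13.07, 13.10, 13.16 and 13.02 in the knockout livers. In wild-type livers they stood at 12.70, 12.82, 12.83 and 12.84 and at 13.09, 13.23, 13.22 and 13.31. The groups overlapped, and the differences were -0.11 ± 0.08 for Fads1 and -0.13 ± 0.08 for Fads2. Scd1, the main hepatic stearoyl-CoA desaturase, ranged over 13.10 to 13.26 and 13.22 to 13.40 and differed by -0.09 ± 0.08, with levels close to the highest value on the arrays, 13.88. Elovl2 and Elovl5, elongases of polyunsaturated fatty acids, differed by -0.11 ± 0.09 and -0.09 ± 0.09. Elovl6, which lengthens palmitate, differed by 0.09 ± 0.10. All 6 of these genes had 95% intervals within a 1.5-fold difference.

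The enzymes that make palmitate did not pass either. Acly, which splits citrate into acetyl-CoA, was 11.00, 11.57, 11.72 and 11.77 in the knockout and 11.55, 11.83, 11.70 and 12.02 in the wild-type livers. Acss2, which makes acetyl-CoA from acetate, was 11.16, 11.66, 11.94 and 11.64 against 11.76, 11.81, 11.83 and 11.78. Acaca, the cytosolic acetyl-CoA carboxylase, was 9.72, 9.92, 10.25 and 10.59 against 9.93, 9.86 and 9.97 in wild-type mice 2, 3 and 4, with wild-type mouse 1 just above them. Knockout mouse 1 was the lowest knockout liver for all 3, and the knockout livers spread more widely than the wild-type livers, with SDs of 0.35, 0.32 and 0.38 against 0.20, 0.03 and 0.06. The differences were -0.26 ± 0.16, -0.19 ± 0.14 and 0.18 ± 0.16, with adjusted p of 0.441, 0.503 and 0.592 (limma). Acacb, the carboxylase of the mitochondrial surface, differed by -0.06 ± 0.21. Fasn, fatty acid synthase, differed by -0.04 ± 0.14, with a 95% interval of -0.35 to 0.26.

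The transcription factors of lipogenesis showed no call. Srebf1, which encodes SREBP-1, stood at 9.98, 10.29, 10.43 and 10.34 in the knockout and at 10.16, 10.25, 10.33 and 10.39 in the wild-type livers, a difference of -0.02 ± 0.10. Mlxipl, which encodes ChREBP, stood at 11.42, 11.33, 11.03 and 10.36 against 11.44, 11.08, 11.10 and 11.60. Its lowest liver was knockout mouse 4, and the difference was -0.27 ± 0.21, with a 95% interval of -0.73 to 0.20. Thrsp, a lipogenic protein induced by thyroid hormone and carbohydrate, was 9.44, 9.84, 9.87 and 10.02 against 9.76, 9.71, 10.20 and 10.27, a difference of -0.19 ± 0.16. None of these 3 separated the groups.

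Glyceride synthesis showed small differences in both directions and no call among 7 genes. Dgat2, which adds the last acyl chain of newly made triglyceride, was 12.30, 12.43, 12.49 and 12.37 in the knockout and 12.32, 12.27, 12.18 and 12.23 in the wild-type livers. The groups overlapped through wild-type mouse 1, and the difference was 0.14 ± 0.07 (limma, adjusted p = 0.363). Dgat1, the other enzyme of that step, was 9.32, 9.25, 9.43 and 9.52 against 9.30, 9.29, 9.33 and 9.24, a difference of 0.09 ± 0.08. Lpin1, a phosphatidate phosphatase induced by fasting, was 11.35, 11.02, 10.97 and 10.83 against 11.24, 11.11, 10.09 and 10.28. Wild-type mice 3 and 4 lay below the other 6 livers, and the difference was 0.36 ± 0.24. Lpin2, the related phosphatase, differed by 0.13 ± 0.16, Gpam, the mitochondrial acyltransferase of the first step, by -0.02 ± 0.09, and Agpat2, of the second step, by -0.09 ± 0.09. Mogat1, which acylates monoacylglycerol, was dim at 5.38 to 5.57 and differed by 0.01 ± 0.07.

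The pair of PNPLA genes did not pass. Pnpla2, the triglyceride lipase that starts droplet lipolysis, was 10.56, 9.90, 10.12 and 9.95 in the knockout and 10.29, 9.92, 9.73 and 9.89 in the wild-type livers. Pnpla3, a droplet protein gene that SREBP-1c and ChREBP induce, was 6.30, 6.63, 7.12 and 6.83 against 6.13, 6.73, 7.17 and 7.41. In both groups mouse 1 was the highest for Pnpla2 and the lowest for Pnpla3. The differences were 0.18 ± 0.15 and -0.14 ± 0.25.

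The spread within the groups had a pattern of its own, shared by the 2 mice numbered 1. Knockout mouse 1 was the lowest knockout liver for 16 of the 31 genes and wild-type mouse 1 the lowest wild-type liver for 18. For 12 genes mouse 1 was the lowest in both groups: Acly, Acss2, Acacb, Fasn, Srebf1, Elovl5, Fads1, Gpam, Agpat2, Pnpla3, Plin5 and Lpl. For Lpin1, Lpin2 and Pnpla2 mouse 1 was the highest in both. The same counts were not made over all genes, where deviations of these 2 arrays from their group means correlated at 0.273. No other mouse number was the lowest in both groups for more than 2 genes, while mouse 4 was the highest in both for 7, among them Acly, Acacb, Fasn and Thrsp.

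Clock genes moved with these 2 arrays. Dbp stood at 9.66 in knockout mouse 1 and 9.86 in wild-type mouse 1, and the clock repressor Nr1d1 at 11.32 and 11.36 against 8.16 to 9.77 in the other livers. Npas2, which peaks at the opposite time, stood at 7.66 and 7.49 against 9.01 to 9.74. The hour of collection and the feeding state are not in the labels, and their part in the spread was not tested. Without both arrays of mouse 1 the difference of Fasn was 0.04 and that of Acly -0.17. Cd36 then differed by 0.61 (limma, adjusted p = 0.0625), Plin4 by 0.63 (adjusted p = 0.119) and Elovl3 by -1.74 (adjusted p = 0.227), and no gene of the 31 passed with 3 mice a group.

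**Figure D4:**
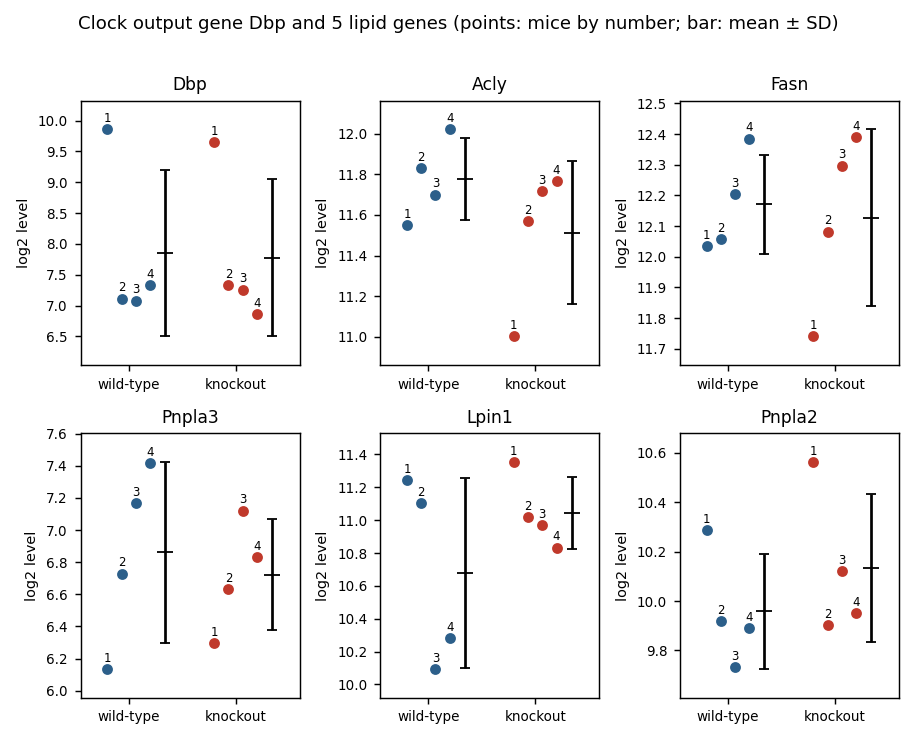
Log2 level in each liver of the clock output gene Dbp and of Acly, Fasn, Pnpla3, Lpin1 and Pnpla2 (points with mouse numbers, 4 wild-type in blue and 4 knockout in red; bars are mean ± SD). Mouse 1 of each group is the highest of its group for Dbp, Lpin1 and Pnpla2 and the lowest for Acly, Fasn and Pnpla3.

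**Figure D5:**
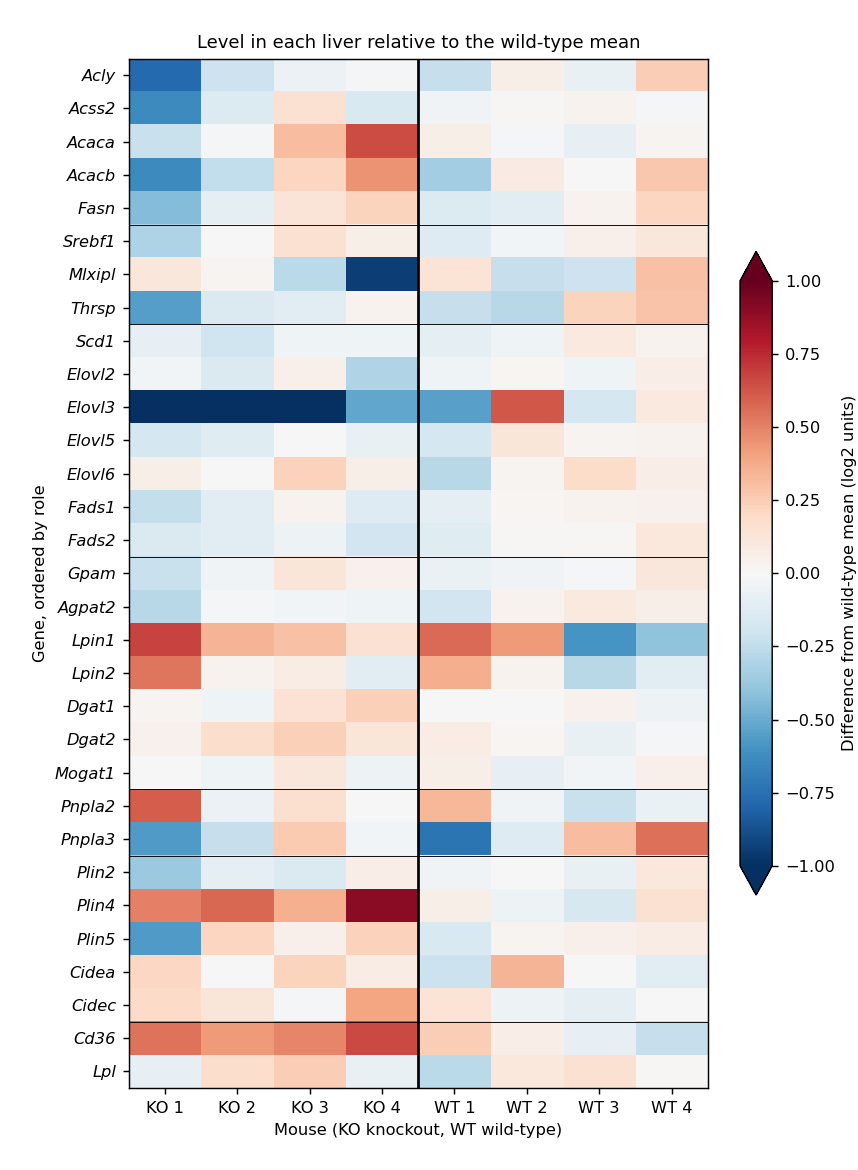
Level of each of the 31 genes in each liver minus that gene's wild-type mean, in log2 units, with knockout mice 1 to 4 left of the black line and wild-type mice 1 to 4 right of it; colours are capped at 1 unit in either direction, which Elovl3 passes in knockout mice 1 and 3. The rows of Cd36 and Plin4 are red in all 4 knockout livers, while the rows of Acly, Acss2, Acacb and Fasn are blue in knockout mouse 1.

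The 2 kinds of wild-type mice were compared with each other and with the knockout in a fit of 3 groups. None of the 31 genes differed between controls with and without Cre (limma, 0 after adjustment and 0 at an unadjusted p under 0.05, lowest unadjusted p = 0.194), where 0% of all genes were called and 3.03% had an unadjusted p under 0.05. Differences between the control classes ran from -0.72 for Elovl3 to 0.17 for Cd36. Cd36 was higher in the knockout by 0.44 ± 0.13 against controls with Cre and by 0.61 ± 0.13 against those without. Plin4 was higher by 0.64 ± 0.15 and 0.53 ± 0.15, and Elovl3 differed by -1.19 ± 0.56 and -1.91 ± 0.56 (SE). No gene of the 31 passed in either contrast (lowest adjusted p = 0.180 with Cre and 0.113 without), in which 0.131% and 0.212% of all genes were called, and each class held 2 mice. The knockout mice share Cre with 1 class and 2 floxed alleles with the other, and both contrasts share the knockout arrays. In controls with Cre, Cre can act on 1 Sco1 allele, so Cre and the number of Sco1 copies cannot be told apart between the classes. That class also includes wild-type mouse 1, whose array stood apart in Dbp.

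Further genes of the same pathways were read from 6 lists, chosen with earlier results of these data known. Over all genes 0.433% were called higher and 0.717% lower, and 10.7% had groups without overlap in either direction. In wider fatty acid synthesis 1 of 20 measured genes rose and 19 did not pass. It was Elovl7, another fatty acid elongase gene, which stood at 6.46, 6.06, 6.01 and 6.11 in the knockout and at 5.63, 5.48, 5.31 and 5.66 in the wild-type livers. The groups did not overlap, and the difference was 0.64 ± 0.12 (limma, adjusted p = 0.0308). The call was kept without knockout mouse 3 (adjusted p = 0.0491) and lost without any 1 of the other 7 arrays (adjusted p of up to 0.0864), with quantile normalization repeated (0.0508), with the Y-linked covariate (0.0605) and with every probe set tested (0.104). All its levels lay below the array medians.

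In wider glyceride synthesis 1 of 15 genes rose and 14 did not pass. Mogat2, the intestinal monoacylglycerol acyltransferase, which is low in liver, was 6.48, 6.31, 6.54 and 6.87 in the knockout and 5.88, 5.68, 6.18 and 5.82 in the wild-type livers. Every knockout liver lay above every wild-type liver, the closest being knockout mouse 2 and wild-type mouse 3. All wild-type levels of Mogat2 lay below the array medians. The difference was 0.66 ± 0.13 (limma, adjusted p = 0.0437), kept without knockout mouse 2 or wild-type mouse 3 (adjusted p = 0.0471 and 0.0411) and lost without any 1 of the other 6 arrays (adjusted p of up to 0.117). The call was also lost with arrays centred on their medians (limma, adjusted p = 0.0524), with quantile normalization repeated (0.0747), with every probe set tested (0.135) and with the Y-linked covariate (0.0914), and knockout mouse 4 was its highest liver.

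Among 22 further droplet and lipolysis genes 1 fell, none rose and 21 did not pass. Ces3b, a liver carboxylesterase gene, was 11.54, 11.67, 11.21 and 11.68 in the knockout and 12.29, 12.05, 12.23 and 12.13 in the wild-type livers. The groups were separate, and Ces3b fell by 0.65 ± 0.11 (limma, adjusted p = 0.0251), kept without knockout mouse 2, 3 or 4 or wild-type mouse 2 and lost without knockout mouse 1 or wild-type mouse 1, 3 or 4 (adjusted p of up to 0.0770). It was kept with the Y-linked covariate (limma, adjusted p = 0.0419) and lost with every probe set tested (adjusted p = 0.0872). Its neighbour Ces3a, a close copy that cross-hybridisation could mix with it, differed by -0.12 ± 0.07. The calls of Elovl7, Mogat2 and Ces3b were each lost with either control class alone and without both arrays of mouse 1.

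No gene passed in the other 3 lists. Of 16 genes of uptake and lipoprotein lipase control, those of smallest p were the lipoprotein receptor gene Vldlr, at 0.61 ± 0.14 (limma, adjusted p = 0.0565), and the fatty acid transport protein gene Slc27a4, at -0.27 ± 0.10 (adjusted p = 0.196). Both had groups without overlap. Of 29 regulators they were Creb3l3, a fasting-induced transcription factor gene of the liver, at -0.34 ± 0.07 (adjusted p = 0.0535), and Nfyb, a subunit gene of the CCAAT-binding factor NF-Y, at -0.40 ± 0.10 (adjusted p = 0.0798). Of 13 genes that respond to insulin or glucose they were Igfbp1, which insulin represses, at 0.44 ± 0.12 (adjusted p = 0.0952), and fructokinase, Khk, at -0.19 ± 0.07 (adjusted p = 0.231). List medians lay between -0.11 and 0.04, beside 0.03 over all genes.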

How the data were processed

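The deposited values are RMA expression values of 39137 probe sets on 8 arrays, made by the authors with oligo version 1.24, per the submitters' processing notes. The authors' values were taken as log2, which no label states, from the method and their range of 1.28 to 13.88. The chip definition and genome build are not given in the sources used here. Platform annotation gave 1 symbol to 23521 probe sets, several to 1814 and none to 13802. The brightest single-symbol probe set stood for each of 22180 genes. Knockout minus wild-type differences came from lmFit and eBayes of limma 3.58.1 under R 4.3.3 (two-sided, group alone), with Benjamini-Hochberg adjustment over all genes, and a fit with 3 groups compared the control classes. The step was tested on simulated data. Tables and plots used Python version 3.11.15, pandas version 2.3.3 and matplotlib version 3.10.9. Genes of the module, the wider lists, the marker lists, the motifs and the 21 alternatives were chosen with earlier results of these data known. Named genes are all members, each wider-list gene past the threshold or else the 2 of smallest p, and cell type markers. The genes named in the last part are later choices. The number of arrays limits the precision.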

Additional observations from a re-analysis of the deposited data

Results flagged for a closer look

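Among 62 groups of 4 livers (31 genes in 2 genotypes), 2 had a liver far from the other 3 by Dixon's criterion at 95%, and chance flags about 1 in 20 such groups. Agpat2 in knockout mouse 1 stood at 12.03, against 12.26 to 12.28 in the other knockout mice, a gap of 0.904 of the range. Fads1 in wild-type mouse 1 stood at 12.70, against 12.82 to 12.84 in the other wild-type mice, a gap of 0.855 of the range. Both are arrays that stood apart in Dbp.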

How the results depend on the processing

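The count of higher genes among the 31, 2 as reported, was 0 with every probe set tested, with the Y-linked level as covariate, with either control class alone and without both arrays of mouse 1, and 0 to 1 with 1 array left out in turn. Deviations of the 2 mice numbered 1 from their group means correlated at 0.273, and those of mice 2, 3 and 4 at -0.02, 0.03 and -0.10. Whether mouse numbers pair the arrays was not tested. With mouse number as a block the count was 1, Plin4 alone. The count of lower genes was 0 and the median difference stayed within the spread between arrays under all 21 alternatives. Between control classes, of 2 mice each, no gene passed the threshold in any alternative that kept all 4 wild-type arrays. An unadjusted p under 0.05 was reached by 1 of the 31 genes without knockout mouse 1 and by 1 without knockout mouse 3 (limma). Leaving out a wild-type array leaves 1 mouse in a class, and those fits are not read here. Sco1 passed the threshold, at an unchanged -0.41, with a trended robust variance, among the brighter genes alone and without the dimmest genes. Over all genes the calls, 96 higher and 159 lower, were 159 and 300 with a trended robust variance, 123 and 319 among the brighter genes, 155 and 301 without the dimmest genes, 131 and 245 with array weights, 45 and 106 with the Y-linked covariate, 13 and 20 with every probe set tested, 7 and 9 with controls without Cre, 4 and 2 with controls with Cre, 28 and 37 without both arrays of mouse 1, and 29 to 65 and 60 to 119 with 1 array left out. Of 647 values of the 31 genes under alternatives, 583 kept direction and call, 25 lost the call and 39 changed sign, in 11 genes whose unadjusted p was 0.274 or more. With quantile normalization repeated, Fasn was 0.00036, Srebf1 0.013, Gpam 0.020, Plin5 0.035 and Mogat1 -0.066. With controls with Cre alone, Acacb was 0.12, Fasn 0.0073, Srebf1 0.016, Gpam 0.020, Mogat1 -0.012, Pnpla3 0.070 and Plin5 0.033. Without both arrays of mouse 1, Acacb was 0.022, Fasn 0.040, Srebf1 0.029, Gpam 0.024 and Plin5 0.11. Acaca was -0.0047 with the Y-linked covariate, Mogat1 -0.024 with centred arrays, and Lpin2 -0.091 and Lpl -0.036 as the mean of their probe sets. With 1 array left out the range was -0.22 to 0.14 for Acacb, -0.13 to 0.085 for Fasn, -0.080 to 0.071 for Srebf1, -0.0057 to 0.15 for Elovl6, -0.071 to 0.045 for Gpam, -0.030 to 0.026 for Mogat1, -0.38 to 0.044 for Pnpla3, -0.10 to 0.17 for Plin5 and -0.025 to 0.12 for Lpl. The causes were not tested.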

Other observations

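Several of the genes have a close relative next to them on the chromosome, with no protein-coding gene between them in RefSeq, and the values of such neighbours are given side by side. Plin4 differed by 0.58 ± 0.12 and its neighbour Plin5 by -0.02 ± 0.16. Dgat2 differed by 0.14 ± 0.07 and its neighbour Mogat2 by 0.66 ± 0.13. Fads3, which lies beside Fads2, differed by 0.57 ± 0.12, with 8.36, 8.27, 8.73 and 8.47 in the knockout and 7.71, 7.89, 7.81 and 8.15 in the wild-type livers, groups that do not overlap (limma, adjusted p = 0.0520), beside -0.13 ± 0.08 for Fads2 and -0.11 ± 0.08 for Fads1. Fads3 is a desaturase gene of the sphingolipid pathway, named here after its value was seen. Whether the neighbours differ from each other was not tested.

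Further genes that missed the threshold, also named after their values were seen, include Gpat3, an acyltransferase gene of glyceride synthesis, at 0.53 ± 0.13 (limma, adjusted p = 0.0792), and Pparg, the nuclear receptor gene of fat storage, at 0.61 ± 0.17 (adjusted p = 0.110). Pparg stood at 8.96, 8.52, 8.95 and 8.74 in the knockout and at 8.71, 7.86, 8.12 and 8.05 in the wild-type livers, where wild-type mouse 1 alone lay within the knockout range. Without wild-type mouse 1 it differed by 0.78 and passed (limma, adjusted p = 0.0279). It did not pass with any other single array left out (adjusted p of 0.109 to 0.245). Of 21 alternatives 2 passed, the second being with mouse number as a block (adjusted p = 0.0431). Against controls with Cre alone the difference was 0.38 (adjusted p = 0.504), and against those without Cre 0.84 (adjusted p = 0.0914). Abhd5, the coactivator of the lipase encoded by Pnpla2, stood at -0.40 ± 0.11 (adjusted p = 0.110), and Hsd17b12, an enzyme of the elongation cycle, at -0.29 ± 0.08 (adjusted p = 0.121). Mlx, from the list of regulators of lipogenesis, differed by -0.35 ± 0.10 (limma, adjusted p = 0.107), and its groups did not overlap.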
